A study of Mus musculus with 2 samples.

Results

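Id1, Id2, Id3, Eng, Tmem100, Atoh8, Bmp2, Bmp4, Bmp6 and Smad9 are ligands, a co-receptor, a signal transducer and downstream genes of bone morphogenetic protein (BMP) signalling in blood vessels. They were taken by symbol, and all 10 had a row in both count tables, which share 19845 genes. The counts came from endothelial cells of wild-type C57BL/6 mouse retina at postnatal day (P) 6 and P15, sorted as CD31+ CD45- cells and sequenced as 1 droplet library per age. The number of pups behind each library was not given in the sources used here, and every interval below is a 95% interval that covers counting error only. The study grouped its cells into 9 named clusters and scored BMP and transforming growth factor (TGF) signalling from short gene lists that hold none of these 10 genes, and the question here is where along the arteriovenous axis, and at which age, the 10 genes were expressed.

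A level below is in CPM (counts-per-million), the unique molecular identifiers (UMIs, each a counted RNA molecule) of a gene for each 1000000 UMIs of all genes, over the pooled cells of a group. The P6 library held 13958124 UMIs in 1984 barcodes and the P15 library 11589641 UMIs in 2141 barcodes, with 7 barcode sequences in both. Of these, 1424 P6 and 1644 P15 barcodes passed the exclusion criteria of the study as read here, and 1560 P6 and 438 P15 barcodes carried a cluster label, since the labels at hand cover only part of the P15 library. Of the labelled barcodes, 1399 P6 and 409 P15 ones passed, so the filter as read here is not identical to the one behind the labels. All 6 endothelial markers (Pecam1, Cdh5, Cldn5, Kdr, Tek and Tie1) were detected in every P6 cluster, with a summed level from 3856 to 10512 CPM, and in the 8 P15 clusters used from 9273 to 13930.5. The clusters were made by the study from the same cells and genes, so a difference between clusters describes them and is not a test. The P15 Venous cluster, with 2 labelled cells, is not used.

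BMPs are secreted dimers that bind type I and type II serine/threonine kinase receptors and lead to phosphorylation of SMAD1, SMAD5 and SMAD9, which enter the nucleus with SMAD4. In endothelium the type I receptor is mainly ALK1, encoded by Acvrl1, and endoglin is its co-receptor for circulating BMP9 and BMP10. Loss-of-function mutations of ENG or ACVRL1 cause hereditary haemorrhagic telangiectasia, in which arteries and veins join directly. Id1, Id2 and Id3, which encode inhibitors of basic helix-loop-helix transcription factors, are the best known immediate targets of the pathway.

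Id1, Id2 and Tmem100 were highest in the Arterial and Cap-Arterial clusters at both ages and Bmp2 in the Arterial cluster, while Eng was detected throughout and was not highest there. At P6, the 202 cells of these 2 arterial clusters gave 10.7% of all labelled UMIs, but 94.0% (88.6 to 97.4) of the Tmem100 UMIs, 87.1% (76.1 to 94.3) of the Bmp2 UMIs and 28.9% (27.5 to 30.3) of the Id1 UMIs. Eng gave 11.2% (10.53 to 11.99) of its UMIs there, close to the share of all genes. From P6 to P15 the level of Eng over all cells that passed was 1.56 (1.51 to 1.61) times as high, and that of Id2 1.66 (1.51 to 1.83) times. The 6 endothelial markers summed were at 1.60 times, carried by Cldn5 at 1.78, while the others ranged from 0.918 for Tek to 1.29 for Pecam1. Bmp4, Bmp6, Atoh8 and Smad9 gave between 1 and 13 UMIs each in the labelled P6 cells, too few to place them in any cluster.

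**Figure D1:**
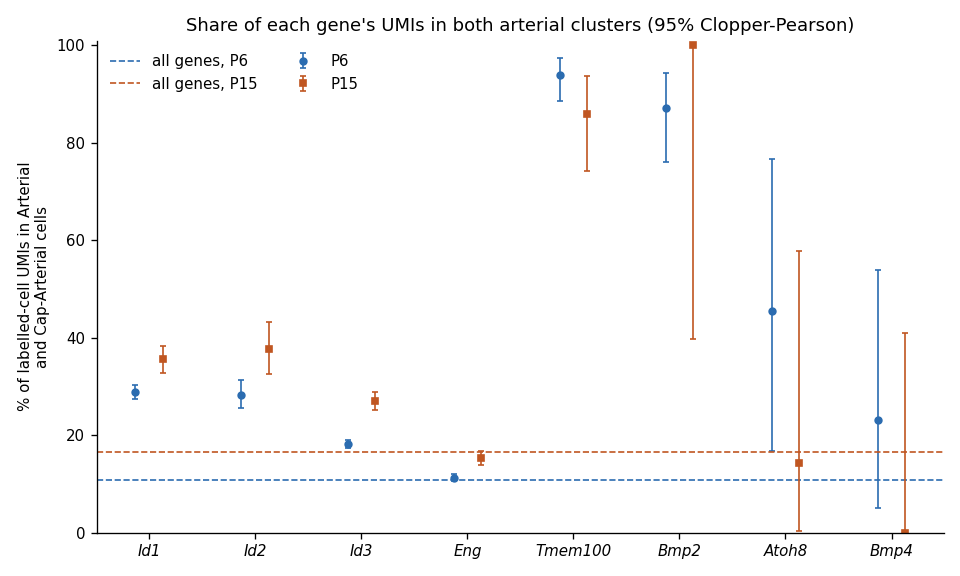
Share of each gene's labelled UMIs that lay in Arterial and Cap-Arterial cells at each age, in percent, with exact binomial 95% intervals, beside the share of all UMIs in those cells. At P6, Tmem100 reached 94.0% and Bmp2 87.1%, the 3 Id genes lay between 18.2% and 28.9%, and Eng lay at 11.2%.

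The genes lie on 8 chromosomes of the GRCm38 build, where Eng (chromosome 2, 32646595 to 32682669), Bmp2 (chromosome 2, 133552159 to 133562885) and Id1 (chromosome 2, 152736251 to 152737410) share a chromosome. Id2 lies on chromosome 12, 25093799 to 25097140, Id3 on chromosome 4, 136143497 to 136145755 and Tmem100 on chromosome 11, 90030348 to 90036508. Bmp4 spans chromosome 14, 46383520 to 46390669, Bmp6 spans chromosome 13, 38345107 to 38500302, Atoh8 spans chromosome 6, 72206177 to 72235577 and Smad9 spans chromosome 3, 54755582 to 54801257. RefSeq promoter windows of 300 bases, from 250 before to 50 after a gene's start, were found for 7 of the 10 genes, and those of Id1, Tmem100 and Bmp2 are not shown. The windows were searched on both strands for the motif GGCGCC, which SMAD1 and SMAD5 bind, and for the SMAD box CAGAC, whose reverse complement is GTCTG. No match of one motif overlapped a match of the other in the stretches shown. GGCGCC occurred in 11.9% of 32851 mouse promoter windows, and here once each in those of Id2 and Smad9. CAGAC or GTCTG occurred in 49.6% of all windows, and here in those of Id3, Eng and Bmp6, while the windows of Atoh8 and Bmp4 held neither motif.

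The stretches before the start of Id2 and Eng are shown because these genes were the 2 that were past 1.5-fold higher at P15, and because each holds a motif that the other lacks. Both read 5′ to 3′ on the gene's own strand, with the motifs in capitals (GRCm38.p6, chr12:25096254-25096342, minus strand, for Id2, and chr2:32646345-32646594, plus strand, for Eng).
Id2: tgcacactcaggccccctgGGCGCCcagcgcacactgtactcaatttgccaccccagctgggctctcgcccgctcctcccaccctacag
Eng: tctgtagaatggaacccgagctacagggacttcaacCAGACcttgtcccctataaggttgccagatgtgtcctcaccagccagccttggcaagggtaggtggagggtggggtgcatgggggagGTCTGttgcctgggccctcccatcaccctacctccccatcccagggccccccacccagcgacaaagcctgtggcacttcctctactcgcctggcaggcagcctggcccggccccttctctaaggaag
The bases shown for Id2 lie within the annotated span of the gene but in no annotated exon, and those of Eng lie directly before its annotated start. A match is a description of these letters and not a bound site.

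Among the ligands, Bmp2, which encodes a secreted BMP with roles in heart valve and bone formation, was concentrated in the Arterial cluster. At P6, 40 of 62 labelled Bmp2 UMIs were in the 40 Arterial cells, a level of 202 (145 to 276) CPM, and 14 were in the 162 Cap-Arterial cells, at 16.7 (9.16 to 28.1). Cap-Venous cells, the largest cluster, held 4 UMIs in 414 cells, and no other cluster held more than 1. The Arterial level was 135 (48.7 to 518) times that of Cap-Venous cells and 12.1 (6.44 to 24.1) times that of Cap-Arterial cells. Few cells carried it: 7 of the 40 Arterial cells had a Bmp2 UMI, or 17.5% (7.34 to 32.8), and the 3 highest cells, with 16, 13 and 6 UMIs, held 87.5% of the Arterial UMIs. Of those 7 cells, 6 also had a Tmem100 UMI.

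At P15, all 4 labelled Bmp2 UMIs were in Arterial cells, 3 of 11 of which carried one. The level there was 81.5 (22.2 to 209) CPM, at least 20.7-fold higher than in Cap-Venous cells, where none was counted and the bound is set by 3 counts over that cluster. With the counting error of the 4 UMIs, the lower limit of this ratio was 10.3. Labels extended to the unlabelled P15 cells from their nearest labelled neighbours, without use of the 10 genes, gave 43 Arterial cells with 20 Bmp2 UMIs, or 108 (66.2 to 167) CPM, and 300 Cap-Arterial cells with 8, or 6.11 (2.64 to 12.04). Of the 9 Bmp2-positive cells among those Arterial cells, 8 also had a Tmem100 UMI. When labelled cells were held out in turn, the extension gave back the study's label for 80.1% of them at P6 and 82.0% at P15, and for 63.6% of the 11 P15 Arterial cells.

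Bmp4, which encodes a BMP with roles in early mesoderm and vascular development, and Bmp6, which encodes an endothelial BMP that induces hepcidin in the liver, were near the limit of counting. Bmp4 gave 13 UMIs in the labelled P6 cells, of which 6 were in Cap-Venous cells at 2.25 (0.827 to 4.91) CPM, and 3 were in the 2 arterial clusters. At P15 it gave 7 UMIs in 5 clusters and none in an arterial one. Bmp6 gave 2 UMIs in the labelled P6 cells, both in Cap-Venous cells, and 1 at P15, in a Capillary cell. No cluster stood apart for either ligand at this depth, and the 40 P6 Arterial cells could have held Bmp6 at up to 15.2 CPM with none counted.

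Eng, the co-receptor endoglin, was found in nearly all cells of every cluster. At P6 its level was lowest in Primitive cells at 556 (509.7 to 606) CPM and highest in Capillary cells at 1052 (966 to 1144), which was 1.40 (1.28 to 1.53) times that of all other labelled cells. Between these lay Proliferative cells at 709, Tip cells at 737, Arterial cells at 749, Stalk cells at 751, Cap-Venous cells at 807, Cap-Arterial cells at 816 and Venous cells at 921, neighbours whose intervals overlapped. The Arterial level was 0.928 (0.780 to 1.10) times the Cap-Venous level at P6 and 0.788 (0.579 to 1.05) times at P15, both with intervals that hold 1. At P15 Capillary cells were again highest, at 1419 (1201 to 1665), and Primitive cells again lowest, at 960.3 (796 to 1149). The 6 endothelial markers summed had the same ends, with 3856 in Primitive and 10512 in Capillary cells at P6, and 9273 and 13930.5 at P15. P6 Capillary cells were also the shallowest, at a median of 3204 UMIs, with a median mitochondrial share of 2.51%. Whether the Eng order is more than this shared order was not tested.

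The share of cells with an Eng UMI was lowest at P6 in Arterial cells, 85.0% (70.2 to 94.3), and reached 98.1% in Cap-Venous cells. With each cell thinned to 3000 UMIs so that depth was equal, it was 81.2% of 32 Arterial and 86.9% of 388 Cap-Venous cells. In 29 P6 barcodes that carried neural retina markers and at most 1 endothelial marker, and should lack endoglin, the share was 13.8% (3.89 to 31.7) at a median of 3264 UMIs per barcode, against 4400 in Arterial cells. The Eng shares in the endothelial clusters were far above that share. Those barcodes were chosen for few endothelial markers, which favours a low Eng share, so the value does not measure free RNA. In the P15 library, 24 barcodes with pericyte markers and at most 1 endothelial marker held Eng at 199 (114 to 323) CPM, below every P15 cluster.

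Smad9, which encodes the third BMP receptor-activated SMAD, gave 1 UMI in the labelled P6 cells, in a Cap-Arterial cell, and none in the labelled P15 cells, where 2 were counted over all barcodes. Its level over all passed P15 cells was therefore at most 0.407 CPM at the limit of 3 counts.

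Of the targets, Id1 was highest in Cap-Arterial cells at both ages. At P6 its level was 1197 (1124 to 1274) CPM in Cap-Arterial and 977 (844 to 1125) in Arterial cells. It was 506 (427 to 596) in Venous, 419 (394 to 444) in Cap-Venous and 377 (326 to 433) in Capillary cells. It was 333 (303 to 364) in Stalk, 331 (304 to 359.5) in Proliferative, 237 (209 to 267) in Tip and 209 (181 to 240.5) in Primitive cells. The 2 arterial clusters stood clear of the other 7, with intervals that did not meet theirs. Neighbours in the rest of this order overlapped, other than Proliferative and Tip cells, whose intervals were apart. The Arterial level was 0.816 (0.696 to 0.953) times the Cap-Arterial level, so Id1 was lower at the arterial end than one step before it with the study's labels. The 7 Arterial cells with a Bmp2 UMI held Id1 at 594 (395 to 859). The other 33 held it at 1096 (935 to 1277), an interval that overlapped that of Cap-Arterial cells. In Cap-Arterial cells the same split gave 1376 (1071 to 1742) with and 1186 (1111 to 1265) without Bmp2.

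At P15 the order at the arterial end was the same, with 1288 (1163 to 1423) CPM in Cap-Arterial and 896 (651 to 1203) in Arterial cells, a ratio of 0.696 (0.498 to 0.952). Capillary and Stalk cells followed at 634 (491 to 805) and 630.0 (554 to 713). Cap-Venous cells held 429 (384 to 479) and Primitive cells 387 (286 to 514). Tip cells at 246 (192 to 311) and the 14 Proliferative cells at 219.9 (141 to 327) were lowest. The extended labels gave 1163 (1105 to 1223) in Cap-Arterial and 1236 (1081 to 1407) in Arterial cells, and the step down between them was not seen with these labels.

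Id1 was detected in 91.4% (85.9 to 95.2) of Cap-Arterial and 92.5% (79.6 to 98.4) of Arterial cells at P6, against 73.4% (68.9 to 77.6) of Cap-Venous and 52.3% (44.1 to 60.3) of Primitive cells. Thinned to 3000 UMIs, the shares were 87.2% of 133, 87.5% of 32, 57.7% of 388 and 35.5% of 155 cells, in the same order of arterial over venous over primitive cells. The neural-marked P6 barcodes had a share of 31.0% (15.3 to 50.8), or 26.3% when thinned, and a level of 116 (61.5 to 198) CPM. Id1 is also expressed by cells other than endothelium, and these barcodes were chosen for few endothelial markers, so this share does not measure free RNA.

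Id2 was highest in Arterial cells, one step further along than Id1. At P6 its level was 359 (281 to 453) CPM in Arterial and 240.4 (208 to 276) in Cap-Arterial cells, a ratio of 1.49 (1.12 to 1.97). Venous cells held 127 (88.6 to 175) and Cap-Venous cells 114 (102 to 128). The other clusters lay between 34.9 in Tip cells and 79.0 in Stalk cells. Tip cells were at 0.323 (0.228 to 0.444) times and Primitive cells at 0.360 (0.250 to 0.502) times the level of all other labelled cells, the lowest clusters for Id2 as for Id1. The share of cells with an Id2 UMI was 62.5% (45.8 to 77.3) in Arterial, 48.1% (40.2 to 56.1) in Cap-Arterial and 12.9% (8.29 to 18.9) in Tip cells, or 50%, 39.1% and 7.05% when thinned. The neural-marked P6 share was 6.90% (2 of 29 barcodes), or 5.26% when thinned, from too few barcodes to tell the low Tip share from free RNA.

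At P15 the 11 Arterial cells held Id2 at 754 (531 to 1039) CPM, with a UMI in each of them, and Cap-Arterial cells held 291 (233 to 358). The Arterial level was 2.59 (1.72 to 3.85) times the Cap-Arterial level and 5.38 (3.60 to 7.89) times the Cap-Venous level. Extended labels gave 602 (495 to 725) in Arterial, 306 (277 to 338) in Cap-Arterial and 132 (120.1 to 146) in Cap-Venous cells. The same order of clusters for Id2 at the arterial end was thus present in both libraries.

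Id3 was detected in most cells of every cluster and varied least of the Id genes. Its P6 level ran from 695 (643 to 751) CPM in Primitive cells to 1678 (1592 to 1768) in Cap-Arterial cells, with 1387 (1227 to 1561) in Arterial and 1332 (1201 to 1473) in Venous cells. Arterial and Venous cells did not differ beyond their intervals, and Venous cells were at 1.41 (1.27 to 1.56) times the level of all other labelled cells. Cap-Arterial cells were at 1.74 (1.63 to 1.86) times the Cap-Venous level at P6 and 1.89 (1.68 to 2.12) times at P15. At P15 Cap-Arterial cells held 1708 (1564 to 1861) and Arterial cells 1650.3 (1311 to 2051), which overlapped, and the extended labels gave 1499 and 1778, in the other order. The neural-marked P6 barcodes held Id3 at 53.3 (19.6 to 116), but the P15 pericyte-marked barcodes held it at 1020.3 (811 to 1266), within the range of the endothelial clusters.

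Tmem100, which encodes a membrane protein induced by BMP9 and BMP10 through ALK1 in arterial endothelium, was the most restricted of the targets. At P6, 54 UMIs were in the 40 Arterial cells and 72 in the 162 Cap-Arterial cells, while the other 7 clusters together held 8 UMIs. The level was 273 (205 to 357) CPM in Arterial and 86.1 (67.4 to 108) in Cap-Arterial cells, a ratio of 3.17 (2.19 to 4.58). Against Cap-Venous cells, with 4 UMIs, the ratio was 182 (67.1 to 691) for Arterial and 57.3 (21.4 to 216) for Cap-Arterial cells. A Tmem100 UMI was found in 50% (33.8 to 66.2) of Arterial and 21.6% (15.5 to 28.7) of Cap-Arterial cells, or 46.9% and 13.5% when thinned. In the neural-marked barcodes it was found in 0 of 29, which allows a share of up to 10.3%.

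At P15, Tmem100 was again graded from Arterial cells, with 25 UMIs at 509 (329.6 to 752) CPM, through Cap-Arterial cells, with 24 UMIs at 79.3 (50.8 to 118), to Cap-Venous cells, with 1 UMI. The Arterial level was 6.43 (3.52 to 11.8) times the Cap-Arterial level. With extended labels, Arterial cells held 84 UMIs at 455 (363 to 564) and Cap-Arterial cells 86 at 65.7 (52.6 to 81.1). Among the P6 Cap-Arterial cells, the 35 with a Tmem100 UMI held Id2 at 402 (318 to 501) and the others at 191 (158 to 228) CPM, whereas Id1 was at 1327 and 1157, Id3 at 1526 and 1725 and Eng at 793 and 823. The cells with Tmem100 were deeper, at a median of 5435 against 4416 UMIs, and the part of depth in the Id2 difference was not tested. The same split of the P6 Arterial cells gave Id2 at 376 and 341, with overlapping intervals, and that of the P15 Cap-Arterial cells gave 248 (136 to 416) with and 300 (236 to 377) without Tmem100, so the Id2 difference was not seen in those groups.

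Atoh8, which encodes a basic helix-loop-helix factor that is a target of BMP signalling in endothelium, gave 11 UMIs in the labelled P6 cells, spread over 7 clusters, of which 5 were in the 2 arterial clusters. At P15 it gave 6 UMIs in Cap-Venous cells, at 7.86 (2.88 to 17.1) CPM, and 1 in a Cap-Arterial cell. No order of clusters could be read from it.

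**Figure D2:**
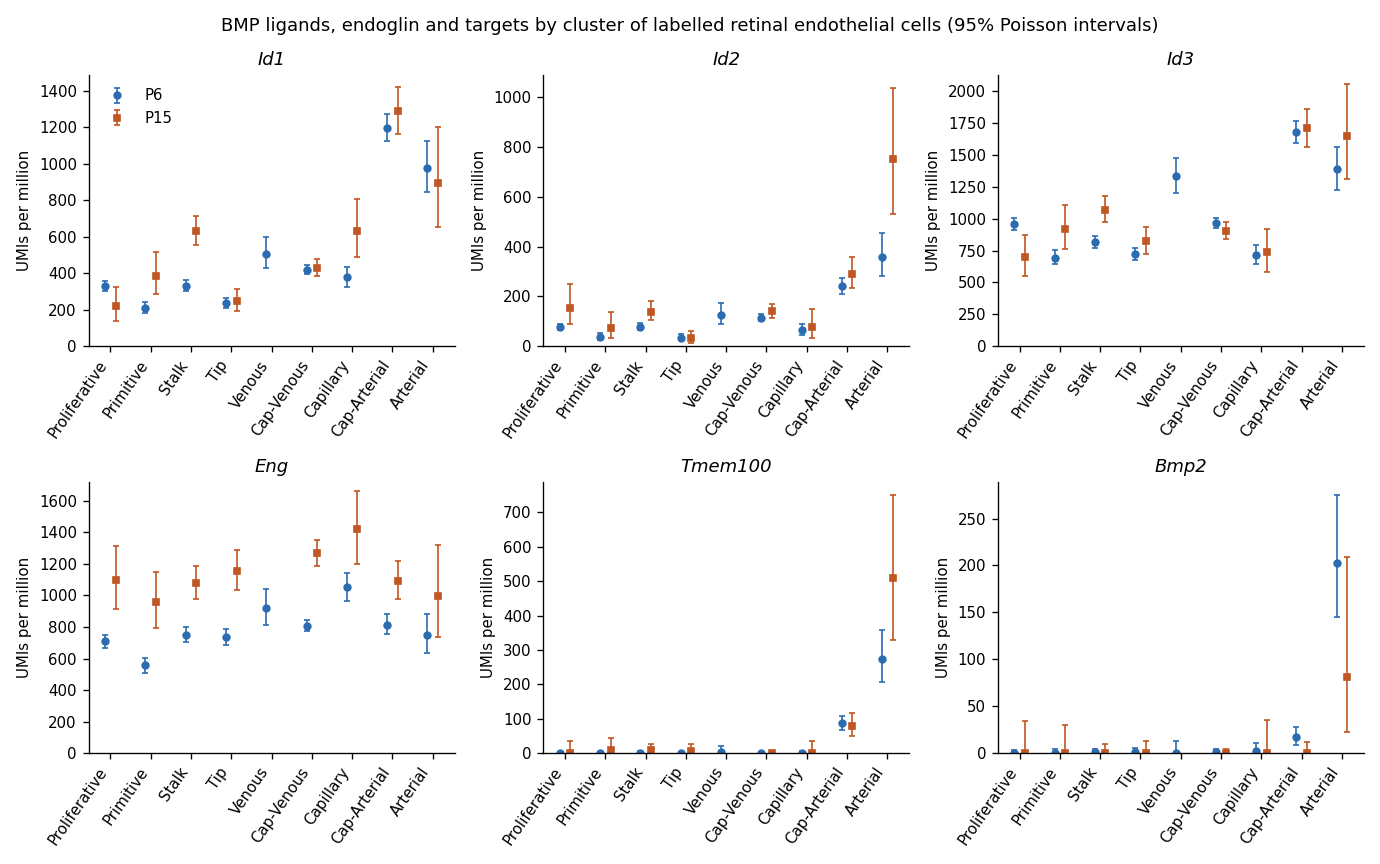
Level (CPM) of Id1, Id2, Id3, Eng, Tmem100 and Bmp2 in the labelled cells of each cluster at P6 and P15, with 95% Poisson intervals. Id1 peaked in Cap-Arterial cells (1197 at P6 and 1288 at P15), Id2 and Tmem100 in Arterial cells, and Eng was highest in Capillary cells (1052 at P6).

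A difference of at least 1.5-fold with at least 50 UMIs over both groups and at least 5 expected in the smaller group was counted as past the fold. Between Arterial and Cap-Venous cells at P6, 4 of the 10 genes had that many counts, and 2 of them, Id1 at 2.33 (1.99 to 2.72) and Id2 at 3.15 (2.39 to 4.09), were higher in Arterial cells, where 19.2% of 5273 genes were. None was lower, where 18.8% of all genes were, and Id3 at 1.44 (1.26 to 1.63) and Eng were inside the fold. At P15, 3 of 4 were higher, Id1 at 2.09 (1.49 to 2.87), Id2 and Id3 at 1.82 (1.43 to 2.30), where 15.7% of 1840 genes were, and none was lower, where 23.8% were. Tmem100 and Bmp2, with the largest ratios of the 10 genes, did not enter this count because fewer than 5 UMIs were expected in the Arterial cells. Bmp2 at both ages and Tmem100 at P15 also had fewer than 50 UMIs over both groups. The median log2 ratio of the 4 genes was 0.87 at P6 and 0.96 at P15, beside medians of 0.05 and -0.07 over all genes counted.

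The clusters were made with these genes among the data, so the labels were also predicted from other cells by nearest neighbours with the 10 genes left out. The neighbours still carried the study's labels, so the predicted labels are not independent of the 10 genes. Arterial over Cap-Venous ratios with these held-out labels at P6 were 2.23 for Id1, 3.82 for Id2, 1.42 for Id3, 0.997 for Eng and 167 for Tmem100. At P15 they were 1.92, 4.34, 1.61, 0.654 and 108. The direction of each ratio was as with the study's labels, and Eng at P15 was past the fold on the lower side with these labels only.

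Other genes moved with the arterial clusters. The summed level of 7 immediate early genes (Fos, Fosb, Jun, Junb, Egr1, Atf3 and Ier2), which rise during cell handling, was 2394 (2183 to 2619.5) CPM in Arterial, 1303 (1226 to 1382) in Cap-Arterial and 796 (763 to 831) in Cap-Venous cells at P6, and 4727, 3068 and 2576 at P15. Id1 is itself a rapidly induced gene, and the part of these genes in its pattern was not tested. The list of Müller glia and astrocyte markers, 4 of whose 6 genes had a P6 row, summed to 1564 in Arterial and 1592 in Cap-Arterial against 249 in Cap-Venous cells. Glul, which endothelium also expresses, gave 1564, 1591 and 246 of these. Slc1a3 and Gfap were at 0 in both P6 arterial clusters, while Rlbp1 was at 0 in Arterial but detected in Cap-Arterial cells. At P15, with 5 of the 6 genes, the list summed to 3443 in Arterial, 2844 in Cap-Arterial and 872 in Cap-Venous cells. The part of glial RNA in these levels was not tested.

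The position of a cell between artery and vein was also taken without the clusters, as the mean z-score of 17 arterial minus that of 13 venous genes from the study's supplementary list, which holds none of the 10 genes. Its arterial genes do include Acvrl1, Hey1 and Hey2, which are among the other pathway genes below, so the score is not free of the pathway. Cells that passed were put into 5 bins of equal size, from the most venous to the most arterial score. Tmem100 and Bmp2 lay almost only in the top bin. At P6 that bin held 91.5% of the Tmem100 UMIs (118 UMIs) and 87.0% of the Bmp2 UMIs, and at P15 90.6% (164 UMIs) and all 28.

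Id1 was highest in the top bin at both ages. At P6 its level from the lowest to the highest bin was 380.4, 443, 319, 369 and 762 (716 to 810.1) CPM, with no order among the first 4 bins and the highest level in the top one. At P15 it was 369.6, 390.1, 476, 643 and 1045 (991 to 1102), higher in each bin than in the one before. The top bin was 2.003 (1.81 to 2.22) times the lowest at P6 and 2.83 (2.56 to 3.13) times at P15. Whether the ages differ in this gradient was not tested, since each has 1 library.

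From the lowest to the top bin, Id2 was at 85.2, 100.1, 75.5, 72.6 and 153 (132 to 175) at P6. At P15 it was at 120.3, 106, 117, 163 and 309.8 (280.4 to 341). Id3 was at 942, 901, 839, 944 and 1231 (1172 to 1292) at P6, and at 837, 891, 990, 1169 and 1441 (1377 to 1507) at P15. Below the top bin, neither gene had an order at P6. Eng was at 812, 799, 773, 728 and 767 (721 to 815) at P6, least in bin 4. The ratio of its top to its lowest bin there was 0.945 (0.869 to 1.03), an interval that holds 1. At P15 Eng was at 1207, 1283, 1228, 1223 and 1089 (1034 to 1147), least in the top bin, with a ratio of 0.903 (0.842 to 0.968). The P15 UMIs of Bmp4 over the bins were 8, 7, 3, 2 and 2, and those of Atoh8 6, 5, 5, 4 and 6, neither pointing towards the arterial end. Cells in the top bin were shallower than those in the lowest, with a median of 4360.5 against 5073 UMIs at P6 and 3677 against 4346 at P15.

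Between the ages, over all cells that passed, Eng and Id2 differed most of the abundant genes. The level of Eng was 776 CPM at P6 (5934 UMIs) and 1209.8 at P15 (8918 UMIs). Id2 was at 95.4 and 159, Id1 at 445 and 569.8, a ratio of 1.28 (1.22 to 1.34), and Id3 at 962 and 1053, a ratio of 1.09 (1.06 to 1.13). Tmem100 had 129 UMIs at P6 and 181 at P15, a ratio of 1.46 (1.16 to 1.84). These abundant genes were thus all higher at P15 in this scaling, by between 1.09 and 1.66 times.

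Past the 1.5-fold threshold, 2 of the 6 genes with enough counts were higher at P15, Id2 and Eng, where 18.8% of 10977 genes were, and 1 was lower, Bmp2, where 11.8% of all genes were. Bmp2 gave 46 UMIs at P6 and 28 at P15, a ratio of 0.632 (0.380 to 1.03) whose interval holds 1. It was 1.09 over every barcode and 1.97 in cells without pericyte or neural marker UMIs, so no direction is given for Bmp2. Of the 59 Bmp2 UMIs in the P15 library, 31 were in barcodes that neither passed nor carried a label. Atoh8 had 8 and 26 UMIs, a ratio of 3.37 (1.48 to 8.62), and Bmp4 12 and 22, a ratio of 1.90 (0.901 to 4.22), both below the 50 UMIs asked for. Bmp6 gave 1 and 4 UMIs, and Smad9 1 and 0.

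The size of these differences depended on the scaling. The median ratio of all genes counted was 1.09, a log2 of 0.12, beside a median log2 of 0.45 over the 6 genes. Relative to that median, Eng was at 1.43, Id2 at 1.53, Tmem100 at 1.34, Id1 at 1.18 and Id3 at 1.004. Over all genes, 2067 were higher and 1299 lower at P15, 61.4% of the differences being higher, whereas with median of ratios scaling it was 1526 and 1678, or 47.6%, and with totals without ribosomal and mitochondrial genes 1430 and 1783, or 44.5%. With the last of these the ratio was 1.40 for Eng, 1.495 for Id2, 1.15 for Id1 and 0.984 for Id3, so that Eng and Id2 were still higher at P15 but under 1.5-fold, and Id3 turned to just under 1.

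Eng was higher at P15 inside every cluster. The P15 over P6 ratio was above 1 in 8 of 8 clusters, from 1.33 in Arterial to 1.73 (1.40 to 2.11) in Primitive cells, and the interval lay above 1 in 7 of them. In Cap-Venous cells it was 1.57 (1.45 to 1.70), in Tip cells 1.57 (1.37 to 1.78) and in Cap-Arterial cells 1.34 (1.17 to 1.53). The only interval that held 1 was that of the 11 P15 Arterial cells, 1.33 (0.945 to 1.85). The 6 endothelial markers summed were also higher at P15 in all 8 clusters, by 1.60 times in Cap-Venous, 1.51 in Tip, 1.39 in Cap-Arterial, 1.25 in Arterial and 2.40 in Primitive cells. Over all cells that passed, Cldn5 carried most of that sum, at 1.78 times, while Pecam1 was at 1.29, Tie1 at 1.27, Cdh5 at 0.939, Kdr at 0.930 and Tek at 0.918.

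The Id1 ratio spread more widely over the clusters. It was 1.89 (1.62 to 2.21) in Stalk, 1.85 (1.32 to 2.55) in Primitive and 1.68 (1.25 to 2.23) in Capillary cells, but 1.03 (0.904 to 1.16) in Cap-Venous, 1.08 (0.955 to 1.21) in Cap-Arterial, 1.04 (0.788 to 1.36) in Tip and 0.918 (0.646 to 1.28) in Arterial cells. In the 14 P15 Proliferative cells it was 0.665 (0.422 to 0.999). The cluster with most Id1 at P6, Cap-Arterial, was thus among those whose interval holds 1. One of the 36 P15 Primitive cells held 14 of their 48 Id1 UMIs, and without it the ratio there was 1.41 (0.953 to 2.04), with an interval that holds 1, while without the highest P15 cell Stalk cells were at 1.77 (1.503 to 2.08) and Capillary cells at 1.505 (1.10 to 2.03). Extended labels gave 1.66 in Stalk, 1.63 in Primitive, 1.58 in Capillary and 0.971 in Cap-Arterial cells. Differences between clusters in this ratio were not tested.

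Id2 was at 2.10 (1.37 to 3.16) in Arterial, 1.90 (0.805 to 4.02) in Primitive and 1.76 (1.25 to 2.45) in Stalk cells, and under 1 only in Tip cells, at 0.909 (0.387 to 1.91). One P15 Primitive cell held 5 of 9 Id2 UMIs, and without it the ratio there was 0.875 (0.226 to 2.44). Id3 lay from 0.727 (0.570 to 0.916) in Proliferative to 1.32 (1.07 to 1.62) in Primitive cells and was at 1.02 (0.918 to 1.13) in Cap-Arterial cells. Without the highest P15 cell, which held 23 of 114 UMIs, the Id3 ratio in Primitive cells was 1.14 (0.904 to 1.42). Tmem100 was at 0.920 (0.554 to 1.48) in Cap-Arterial and 1.86 (1.11 to 3.05) in Arterial cells, and Bmp2 at 0.403 (0.105 to 1.11) in Arterial cells. A single P15 Arterial cell held 10 of the 25 Tmem100 UMIs, and without it the Arterial ratio was 1.21 (0.634 to 2.17), so that neither arterial cluster then had a Tmem100 interval clear of 1. Without its highest P15 cell, the Arterial ratio was 1.78 (1.10 to 2.79) for Id2 and 0.225 (0.0263 to 0.867) for Bmp2, from 2 UMIs.

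**Figure D3:**
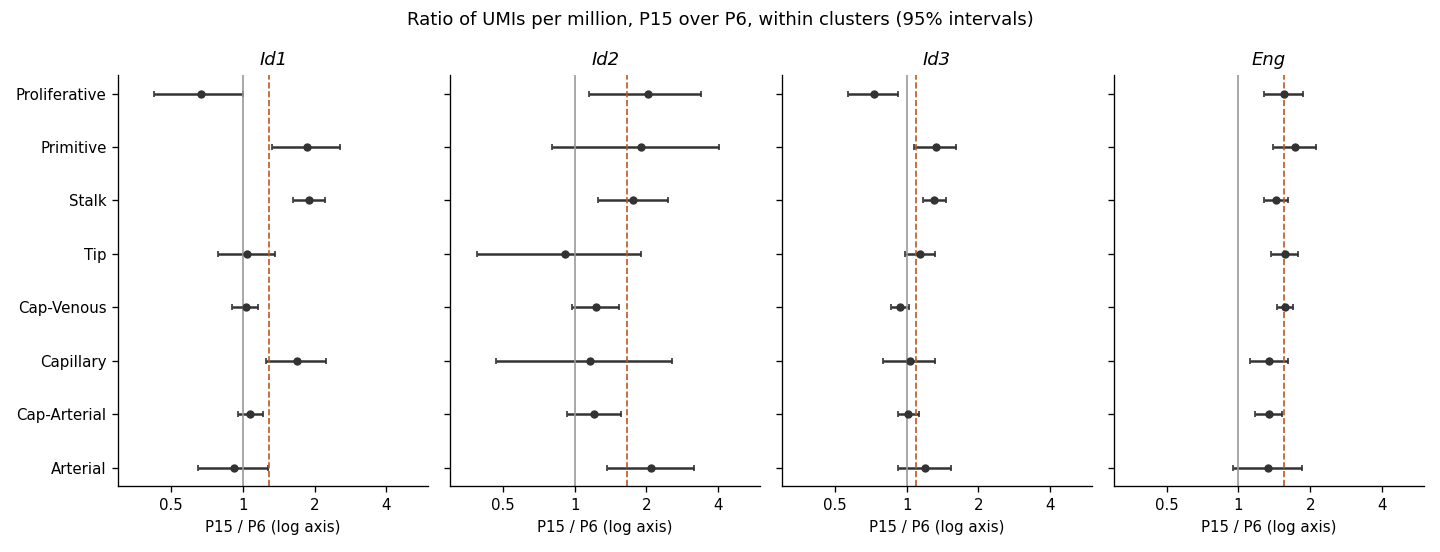
Ratio of the P15 to the P6 level (log axis) of Id1, Id2, Id3 and Eng within each cluster that had at least 10 labelled P15 cells, with 95% counting intervals and a line at 1. Eng lies above 1 in all 8 clusters, while Id1 spans 0.665 in Proliferative to 1.89 in Stalk cells.

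The 2 libraries also differed in markers of other cells, in handling genes and in Xist. The summed level of 10 pericyte and smooth muscle markers in cells that passed was 13.9 CPM at P6 and 305 at P15, with Rgs5 at 8.76 and 242, and was between 20.4 in Arterial and 435 in Capillary cells at P15. Neural retina markers summed to 19.1 and 78.4, red blood cell markers to 22.6 and 172, and immediate early genes to 747 and 2617. Xist was at 45.4 at P6 and 18.7 at P15, with a UMI in 17.9% and 6.57% of the cells that passed. In cells without a pericyte or neural marker UMI, the age ratio was 1.56 for Eng, 1.73 for Id2 and 1.32 for Id1. These ratios were as large as over all cells. A cell without such a UMI can still hold free RNA of other cells, so this choice of cells does not measure it. Age and library cannot be told apart. The part of RNA from other cells, that of the immediate early genes and that of the sex of the pups were not tested.

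The 10 genes were set beside the lists from which the study scored the pathways. The 3 Id genes together were at 3116 (2997 to 3238) CPM in Cap-Arterial and 2723 (2497 to 2963) in Arterial cells at P6. They were at 1965 (1805 to 2134.5) in Venous and 1497 (1451 to 1545) in Cap-Venous cells, and were lowest in Primitive cells at 943 (882 to 1007). The BMP list of the methods, the transducers Smad1 and Smad5 and the type II receptor Bmpr2, ran otherwise. It was highest in Capillary and Tip cells, at 373 (322 to 429) and 351 (317 to 388). Venous cells held it at 334 (270 to 408), an interval that overlapped both. It was 274 (239.6 to 312) in Cap-Arterial and 172 (119 to 240.4) in Arterial cells. At P15 it was again highest in Capillary cells, 492, and 204 in Arterial cells, where the Id genes were at 3301. The clusters highest for the SMAD and receptor transcripts were thus not those highest for the Id transcripts at either age.

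The TGF list of the methods, which includes the BMP9 receptor gene Acvrl1 and the inhibitor Smad6 beside Smad3, Tgfbr1, Tgfbr2, Tgfb1 and Tgfb2, was highest where the Id genes were high, at 1255 (1104 to 1421) in Arterial and 911 (848 to 979) in Cap-Arterial against 538 (511 to 567) in Cap-Venous cells at P6. P6 Venous cells held this list at 756 (658 to 864). At P15 it was 1487 in Arterial, 1064 in Cap-Arterial and 617 in Cap-Venous cells. Its member Acvrl1 alone was, in the same order of clusters, at 445, 373 and 179 at P6 and at 489, 591 and 285 at P15. With the longer lists named in the study's results, the BMP list in Arterial cells was 187 at P6 and 204 at P15, and the TGF list 1346 and 1629.9.

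**Figure D4:**
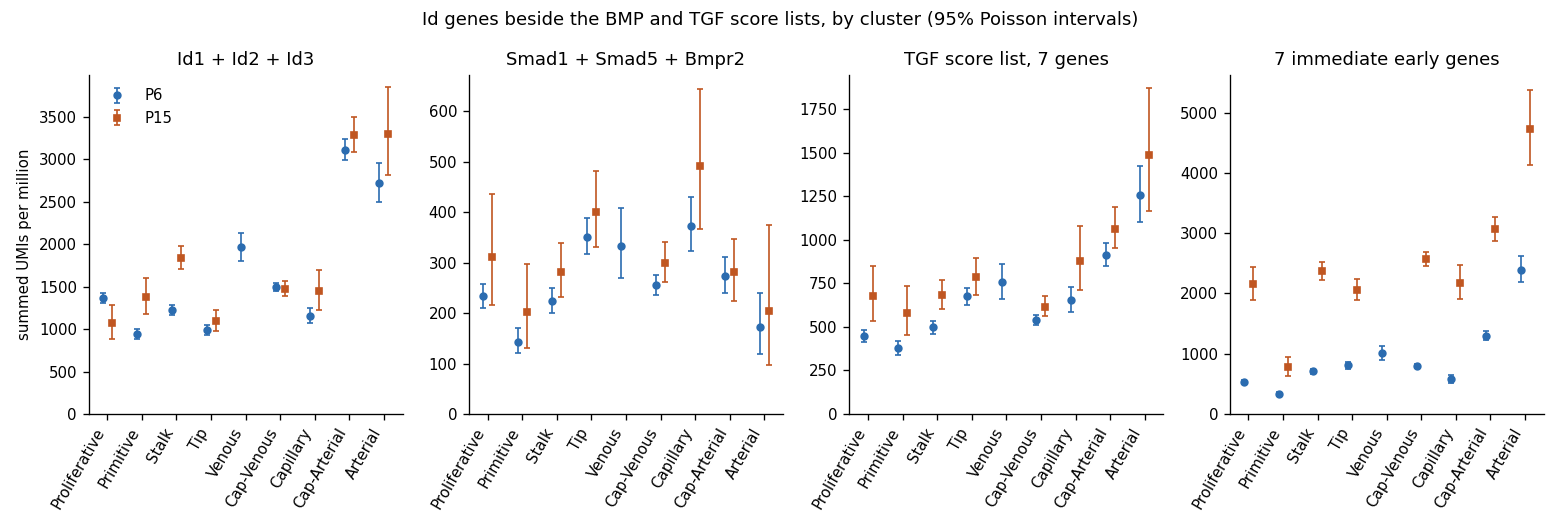
Summed level (CPM) of Id1, Id2 and Id3, of the BMP score list (Smad1, Smad5 and Bmpr2) and of the TGF score list in each cluster at P6 and P15, with 95% Poisson intervals. The Id genes are highest in Cap-Arterial (3116 at P6) and Arterial cells, where the BMP list is at 274 and 172.

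Of 56 other pathway genes, 42 had a row in both tables and 29 had enough counts to compare the ages. Of these, 10 were past 1.5-fold higher at P15, 1 was lower and 18 were neither, where 18.8% and 11.8% of all genes were higher and lower. Among receptors, Acvrl1 was higher at 1.72 (1.61 to 1.83), next to Eng, with which it forms a complex. The inhibitory SMADs, themselves pathway targets, were higher at 4.11 (3.56 to 4.78) for Smad7 and 2.30 (1.61 to 3.31) for Smad6. Of the targets and regulators, Hes1 was at 1.87, Hey1 at 1.91, Id4 at 2.14, Smurf1 at 2.37, Dand5 at 2.10 and Htra1 at 3.50. Nbl1 was at 17.8 (7.91 to 49.7), from only 6 UMIs at P6 and 103 at P15. The secreted regulator Fstl1 was lower at 0.536. The transducers Smad1 at 1.35 and Smad5 at 0.726, the receptor gene Bmpr2 at 1.26 and the pseudoreceptor gene Bambi at 1.17 were inside the fold.

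Between Arterial and Cap-Venous cells at P6, 14 of these genes had enough counts, of which 8 were higher and 3 lower, where 19.2% and 18.8% of all genes were. Acvrl1 was at 2.48 (1.96 to 3.13), Tgfbr2 at 1.75, Smad7 at 3.57 (2.12 to 5.77), Skil at 1.98 and Smurf2 at 1.58 (0.658 to 3.30). The Notch and BMP target Hey1 was at 24.4 (16.1 to 37.5), and the secreted Htra1 and Fstl1 at 11.2 and 6.11. The lower ones were Smad1 at 0.549 (0.271 to 0.998), Smad5 at 0.351 and Bambi at 0.556, so that the arterial cells held more Id1, Id2, Smad7 and Acvrl1 but less Smad1 and Smad5 transcript. At P15, 8 had enough counts, with Acvrl1 at 1.71, Htra1 at 1.86 and Smad7 at 1.57 (0.697 to 3.12) higher. Those lower at P15 were Bambi at 0.159 (0.0327 to 0.470), from 3 Arterial UMIs, Smad1 at 0.587 (0.157 to 1.55), from 4, and Skil at 0.537 (0.172 to 1.28), from 5, of which the last 2 intervals hold 1. None of the 14 other ligand genes had enough counts in any of these comparisons.

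The genes whose level over the 9 P6 clusters was most like that of each gene were sought among 5874 genes by Pearson's r of log2(CPM + 1), a description over 9 points that share libraries and depths, with r over 8 P15 clusters beside it. For Id1 they were Aqp11 at 0.985 (0.814 at P15), Klf2 at 0.968 (0.842 at P15) and Rgs2 at 0.961 (0.887 at P15). For Id2 they were Ei24 at 0.980 (0.355 at P15), Klf4 at 0.977 (0.981 at P15) and Irf1 at 0.963 (0.635 at P15). Klf2 and Klf4 encode transcription factors that are induced by blood flow in endothelium. For Id3 they were Cd74 at 0.945 (0.496 at P15), Dpm2 at 0.941 (0.422 at P15) and Rgs2 at 0.918 (0.702 at P15). For Tmem100 they were Cthrc1 at 0.988 (0.783 at P15), Slc9a3r2 at 0.986 (0.785 at P15) and Mob2 at 0.985 (0.702 at P15). The genes most like Eng were others, Rassf9 at 0.972 (0.832 at P15), Sppl2a at 0.958 (0.727 at P15) and Nrep at 0.956 (0.651 at P15). Among the 10 genes themselves, r was 0.956 (0.652 at P15) for Id1 with Id2, 0.920 (0.830 at P15) for Id1 with Id3, 0.926 (0.655 at P15) for Id1 with Tmem100 and 0.373 (-0.0537 at P15) for Id1 with Eng. Several of these likenesses at P6 were weaker at P15, and none is more than a likeness of pattern.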

How the data were processed

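Sorted retinal endothelial cells were profiled at P6 and P15, with 1 droplet library each. As deposited by the authors, the values are raw UMI counts for every gene in every barcode, without normalization. The submitters' processing notes name Seurat 3.0 and the mm10 build, and the aligner and gene annotation for these counts are not given in the sources used here. The cluster labels came from the study's source data. The exclusion criteria of the study's reporting summary were read as follows, which is a reading of its wording: barcodes passed with 200 to 3500 detected genes, a mitochondrial share of up to 5%, and Cd63, Neurod1 and Hbb-bt all at 0. No doublet caller was run.

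Levels were pooled UMIs scaled to 1000000, with exact Poisson intervals, shares of cells had Clopper-Pearson intervals, and ratios had conditional binomial intervals, all at 95%. A count of 0 was bounded by 3 counts. With 1 library per age no test was made, and fold counts asked for 1.5-fold, 50 UMIs and 5 expected. To compare shares, each cell was thinned to 3000 UMIs and shallower cells were left out. Labels were extended over 13 principal components of 3058 features (the union of 2000 variable genes per library, without the 10 genes) from 15 neighbours, checked with 5 parts held out in turn. Pericyte-marked and neural-marked barcodes had at least 3 markers of that list and at most 1 endothelial marker. Python 3.11.15, numpy 2.4.6, scipy 1.17.1, pandas 2.3.3 and scikit-learn 1.9.0 were used, and the calculations were tested on simulated data. Positions came from GENCODE M21 and promoters from RefSeq.

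All 10 genes are named, the pathway genes past 1.5-fold in a main comparison are given with values, and for genes with at least 100 UMIs the 3 most alike genes with at least 200 UMIs are given. Smad1, Smad5, Bmpr2 and Bambi are also given where they were inside the fold, chosen after their values were seen. The genes, lists and comparisons were chosen with earlier results of these data known, and the arterial minus venous score, the held-out labels and the ratios without the highest cell were added after seeing the data. Alternatives were another fold, filter on counts, choice of cells, scaling, depth, weighting of cells and source of labels.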

Additional observations from a re-analysis of the deposited data

Results flagged for a closer look

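The difference between the ages in Id1 and Id3 lay on opposite sides of 1 in different clusters, with counting intervals that did not reach 1. Id1 was higher at P15 in Primitive cells, at 1.85 (1.32 to 2.55) times, in Stalk cells, at 1.89 (1.62 to 2.21) times, and in Capillary cells, at 1.68 (1.25 to 2.23) times, but lower in Proliferative cells, at 0.665 (0.422 to 0.999) times. Id3 was higher in Primitive cells, at 1.32 (1.07 to 1.62) times, and in Stalk cells, at 1.31 (1.17 to 1.46) times, but lower in Proliferative cells, at 0.727 (0.570 to 0.916) times. The Proliferative value rests on 14 P15 cells against 198 at P6, and with extended labels it was 0.823 for Id1 and 0.705 for Id3. In Primitive cells the highest P15 cell held 14 of 48 Id1 UMIs and the highest for Id3 held 23 of 114, and without that cell the ratio was 1.41 (0.953 to 2.04) for Id1 and 1.14 (0.904 to 1.42) for Id3, both with intervals that hold 1. Whether the clusters differ in the age ratio was not tested, since each age has 1 library.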

How the results depend on the processing

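Each age has 1 library, so no replicate could be left out. No paired analysis was possible because each age has 1 library and the result comes from no test. Of the 10 genes, 3 were past 1.5-fold between the ages (Id2 and Eng higher, Bmp2 lower). The number was 0 at 2-fold, 5 with at least 20 UMIs, 7 with no filter on low counts, and 1 with totals without ribosomal and mitochondrial genes, where Eng and Id2 fell under the fold. With the other choices of cells, scaling, depth and weighting it was between 2 and 4. Between Arterial and Cap-Venous cells, the number with no filter was 7 at P6, against 2, and 7 at P15, against 3, and otherwise it was 2 at P6 and 2 or 3 at P15. The added counts are of genes with few UMIs. The age ratio of Bmp2 turned from 0.632 to 1.09 over every barcode and 1.97 in cells without pericyte or neural marker UMIs, and the cause was not tested. Leaving out the P15 cell with most UMIs of a gene, an alternative added after seeing the data, let the interval of the age ratio reach 1 for Id1 and Id3 in Primitive, Id2 in Proliferative and Tmem100 in Arterial cells. Over 541 ratios of single genes under these alternatives, 484 stayed inside the counting interval of the value reported, 55 moved outside it and 2 (Bmp2) turned direction, and 493 stayed on the same side of 1. Depth limits Bmp4, Bmp6, Atoh8 and Smad9 to a few UMIs per library, and the P15 Arterial cluster to 11 labelled cells.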

Other observations

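Across single cells that passed, Id1 and Id3 were correlated more than the other pairs named here. Pearson's r of their log-scaled levels was 0.441 over 1424 P6 cells and 0.352 over 1644 P15 cells, while that of Id1 with Id2 was 0.293 and 0.270. Id1 with Eng gave 0.0364 and 0.0242. The relation of Id1 and Id3 was also present inside clusters at P6 and P15. It was 0.425 and 0.289 over Cap-Venous, 0.353 and 0.509 over Cap-Arterial, and 0.431 and 0.515 over Stalk cells. The points are cells that share 1 library at each age and differ in depth, so these values are descriptions.

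Most Bmp2 UMIs of both P6 arterial clusters lay in cells that also had a Tmem100 UMI. Tmem100 itself was found in a smaller share of Cap-Arterial than of Arterial cells, so the raw overlaps do not rank the clusters. In the P6 Arterial cluster, 20 of 40 cells had a Tmem100 UMI and 7 had a Bmp2 UMI, 6 cells had both, and 39 of the 40 Bmp2 UMIs lay in Tmem100-positive cells. In the P6 Cap-Arterial cluster, 35 of 162 cells had Tmem100 and 9 had Bmp2, 6 had both, and 10 of 14 Bmp2 UMIs lay in Tmem100-positive cells. With extended labels at P15, 24 of 43 Arterial cells had Tmem100 and 9 had Bmp2, 8 had both, and 19 of 20 Bmp2 UMIs lay in Tmem100-positive cells, but of 300 Cap-Arterial cells 46 had Tmem100 and 5 had Bmp2, 1 had both, and 1 of 8 Bmp2 UMIs lay in a Tmem100-positive cell. Cells with Bmp2 were deeper than those without it in the P6 Arterial cluster, at a median of 6973 against 4388 UMIs, and the part of depth in this overlap was not tested.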
